A study of Mus musculus with 67 samples.

Results

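The elements described here are the regions of open chromatin assigned to the genes Foxa1, Foxa2 and Foxa3, which encode the forkhead box A transcription factors. They were chosen by name: every element whose nearest annotated gene, in the deposited annotation, was 1 of the 3. Of the 111638 elements with accessibility values, 52 met this rule, 20 at Foxa1 and 32 at Foxa2. No element was assigned to Foxa3. A further 4 elements assigned to Foxa2, at +72.0, +105.5, +118.4 and +146.4 kb, had no values. Each element is called by its gene and by the distance of its center from the start site of that gene, with negative distances upstream, and the element over the start site is called TSS.

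FOXA proteins are known as pioneer factors, able to bind their sites in compacted chromatin and to help open it for other factors. In the ventral neural tube Foxa2 is induced by Sonic hedgehog in the floor plate, where it takes part in switching on Shh itself, and it is also found transiently in the neighbouring p3 progenitors. Foxa1 has overlapping roles with Foxa2, and Foxa3 is best known from liver and other endoderm.

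Accessibility was measured by ATAC-seq in 67 libraries from a mouse embryonic stem cell line, HM1, in which fixed cells were transposed with Tn5, then stained for transcription factors and sorted, and the DNA of the sorted cells was sequenced. All cultures received bFGF and LGK, then bFGF with CHIR99021, SB-431542 and DMH1, and reached the neuromesodermal progenitor stage (NMP) at day 3, which 3 libraries represent. From day 3 all received 100 nM retinoic acid, with 0, 10, 100 or 500 nM of SAG, an agonist of the Hedgehog pathway protein Smoothened. On days 4, 5 and 6 progenitors of 4 ventral identities were sorted, p0-1 from 0 and 10 nM SAG, p2 from 10 and 100 nM, and pMN and p3 from 100 and 500 nM. Since p0-1 shares no SAG concentration with pMN or p3, cell type and SAG cannot be told apart in comparisons between them. In order of day there were 6, 6 and 5 libraries of p0-1, 6, 6 and 6 of p2, 6, 5 and 4 of pMN, and 5, 5 and 4 of p3. The p3 gate took cells with SOX2 and NKX2.2 and without OLIG2. All libraries come from this 1 line in culture, and the replicates of a condition are separate differentiations. At day 6 the 4 libraries of pMN and the 4 of p3 carry only replicate numbers 2 and 3, each at 100 and 500 nM SAG. The SDs, intervals and p-values count each library as a separate unit. The libraries are bulk samples of a gate, in which fewer cells with an open element and a less open element in every cell cannot be told apart.

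Values are normalized counts, the reads in an element divided by the size factor of the library, and log2 differences are on the variance-stabilized scale of the deposited table, which shrinks differences between low counts. An element was called where the adjusted p of limma (Benjamini-Hochberg over all elements, two-sided) was under 0.01 and the log2 difference exceeded 1. Reads in elements ranged from 9298160 to 29985325 per library, with a median of 20254011. The lowest was a p3 library of day 4 at 100 nM SAG. Of the members, 20 had a mean above 100 normalized counts over the 67 libraries. The element nearest the start site of Olig2, the pMN marker, had 2325 ± 30.3 normalized counts in pMN (SD, n = 4) and 1005 ± 109 in p3 at day 6 (n = 4). No element carried the name Nkx2-2, the p3 marker. Its antisense neighbor Nkx2-2os had 3 elements, which did not differ in 1 direction between p3 and pMN at day 6 (SD, n = 4 each). The one at -12.8 kb was called higher in p3, at 131 ± 17.5 against 51.9 ± 3.82 in pMN. Those at -5.6 kb (380 ± 45.2 against 271 ± 20.8, log2 difference 0.47) and -2.4 kb (1332 ± 254 against 1910 ± 125, log2 difference -0.53) were not called. A single p2 library of day 6, replicate 3 at 100 nM SAG, stood apart at the Foxa loci. Summed over the 22 members called higher in p3 than in each other cell type at day 6, a set chosen from these values, it held 4202 normalized counts against 1247 to 2102 in the other 5 p2 libraries of that day and 9400 to 15553 in p3. Replicate 3 was also the higher in pMN and p3. In pMN its sums were 2902 and 3669 at 100 and 500 nM, against 1935 and 2176 in replicate 2. In p3 they were 13960 and 15553, against 10174 and 9400. The Nkx2-2os -12.8 kb count of the p2 library was 40.3, between those of its 2 replicates (32.4 and 48.3). At -5.6 kb it was 197 (214 and 222) and at -2.4 kb 1035 (907 and 953). At the elements nearest the start sites of Pax6 and Dbx1 it had the lowest p2 counts of day 6, 3103 and 818. The highest p2 counts there were 3705 and 1031, and p3 had 1696 ± 209 and 631 ± 116 (SD, n = 4). Its Olig2 count, 1217, was the highest of p2 on that day. The mix of cells in this library was not tested. Results that rest on it are given with and without it.

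The loci lie on chromosomes 2 and 12 (mm10). Foxa2 (chr2:148042877-148046969, minus strand) had 1 promoter element and 31 intergenic ones in the deposited annotation. In GENCODE M21, 11 of its elements have their center inside a long noncoding RNA gene, 9030622O22Rik (chr2:147944740-148040203, minus strand), which lies downstream of Foxa2. Foxa1 (chr12:57540628-57546916, minus strand) had 1 promoter element, 11 intergenic elements, 7 in introns and 1 in an exon. The exon and introns belong to Mipol1, a neighbouring gene. The sequences below are those of the start-site elements, of the distal elements Foxa2 -32.2, +158.0 and +160.6 kb, which had large gains in p3, and of Foxa2 +65.9 kb, which was lower in p3. Foxa2 -45.0 kb was added after its values were seen, as the member with the largest p3 difference at day 6. They are the central bases from GRCm38 (mm10), 300 at most, on the plus strand. The start-site windows were shortened to the part outside protein-coding exons. Capitals mark TGTTTAC, a forkhead core motif.
Foxa2 TSS, chr2:148045465-148045661: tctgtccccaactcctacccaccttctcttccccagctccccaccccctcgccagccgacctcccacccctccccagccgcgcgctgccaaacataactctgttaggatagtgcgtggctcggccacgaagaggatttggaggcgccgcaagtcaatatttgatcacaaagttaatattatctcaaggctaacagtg
Foxa1 TSS, chr12:57546122-57546276: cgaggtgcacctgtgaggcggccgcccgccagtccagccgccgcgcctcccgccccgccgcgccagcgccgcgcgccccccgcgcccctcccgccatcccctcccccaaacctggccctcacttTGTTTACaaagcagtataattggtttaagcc
Foxa2 -32.2 kb, chr2:148079068-148079367: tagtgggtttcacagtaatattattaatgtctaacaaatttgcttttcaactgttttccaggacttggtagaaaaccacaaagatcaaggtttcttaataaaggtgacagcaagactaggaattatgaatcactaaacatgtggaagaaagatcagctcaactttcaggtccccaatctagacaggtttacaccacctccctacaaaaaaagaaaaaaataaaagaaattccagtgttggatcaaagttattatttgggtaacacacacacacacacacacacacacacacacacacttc
Foxa2 -45.0 kb, chr2:148091801-148092100: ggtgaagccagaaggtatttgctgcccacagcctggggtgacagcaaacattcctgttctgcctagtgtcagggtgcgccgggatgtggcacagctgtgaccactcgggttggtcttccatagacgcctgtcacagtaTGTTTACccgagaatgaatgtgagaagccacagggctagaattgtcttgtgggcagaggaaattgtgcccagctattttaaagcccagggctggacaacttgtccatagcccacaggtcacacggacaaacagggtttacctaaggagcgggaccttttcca
Foxa2 +158.0 kb, chr2:147888863-147889162: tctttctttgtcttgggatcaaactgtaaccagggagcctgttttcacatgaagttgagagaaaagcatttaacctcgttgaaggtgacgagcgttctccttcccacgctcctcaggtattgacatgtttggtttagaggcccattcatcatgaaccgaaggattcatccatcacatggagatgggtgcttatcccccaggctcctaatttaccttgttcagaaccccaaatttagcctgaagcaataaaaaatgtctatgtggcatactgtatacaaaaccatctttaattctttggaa
Foxa2 +160.6 kb, chr2:147886177-147886476: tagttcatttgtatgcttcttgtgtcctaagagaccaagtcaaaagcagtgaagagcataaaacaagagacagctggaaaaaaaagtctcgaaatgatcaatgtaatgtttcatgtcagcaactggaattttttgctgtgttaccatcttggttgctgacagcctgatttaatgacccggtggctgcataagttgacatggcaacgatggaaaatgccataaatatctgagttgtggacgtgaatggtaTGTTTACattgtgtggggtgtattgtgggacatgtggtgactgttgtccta
Foxa2 +65.9 kb, chr2:147980953-147981252: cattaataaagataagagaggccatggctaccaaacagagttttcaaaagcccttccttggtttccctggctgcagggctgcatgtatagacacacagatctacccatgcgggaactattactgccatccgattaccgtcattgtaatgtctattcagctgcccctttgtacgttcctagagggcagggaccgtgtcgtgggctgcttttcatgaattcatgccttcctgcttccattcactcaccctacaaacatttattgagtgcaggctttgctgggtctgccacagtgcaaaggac

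The forkhead core TGTTTAC, read on both strands, occurred in the central 300 bases of 8 of the 52 members (15.4%) and of 4.93% of all elements. At Foxa2 these were -45.0, +111.8, +140.5 and +160.6 kb, and at Foxa1 the TSS, +30.4, +49.6 and +145.4 kb. The related core TATTTAC occurred in 1 member, against 3.77% of all elements. A GLI core (ACCACCC) occurred in 1 member against 4.26%, a SOX core (AACAATG) in 3 against 7.58%, and an NKX core (TNAAGTG) in 9 against 15.0%. Within whole elements, which vary in length, TGTTTAC occurred in 15 members, against 14.3% of all elements. These are matches of letters and not measured binding sites.

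Between p3 and pMN, the neighbouring fates sorted from the same SAG concentrations, the Foxa loci differed increasingly with time. At day 4, 7 of the 52 members were higher in p3, where 2.48% of all elements were, and 1 was lower, against 5.2%. By day 5 the numbers were 18 higher (8.31% of all elements) and 3 lower (11.9%). By day 6 they were 27 higher (12.4%) and 4 lower (13.9%). Of the 27, 20 were at Foxa2 and 7 at Foxa1. The median log2 difference of the members was 0.21, 0.67 and 1.07 on the 3 days, and that of all elements 0.00, 0.03 and -0.01. Of the 27 higher at day 6, 8 lay upstream and 18 downstream of the start site, as did 16 and 34 of all 52 members. The set higher on all 3 days held Foxa1 +49.6, +86.6 and +96.2 kb and Foxa2 -60.9, -45.0, -32.2 and +158.0 kb. A further 11 members were first higher on day 5, among them the Foxa2 TSS, and 9 first on day 6. The 4 members lower in p3 on any day were Foxa1 +79.2 and +108.9 kb and Foxa2 +62.2 and +65.9 kb. No difference was called on any day for 21 members, 11 at Foxa1 and 10 at Foxa2. Without the libraries numbered replicate 1 the members called at day 4 were 5 in place of 8.

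**Figure D1:**
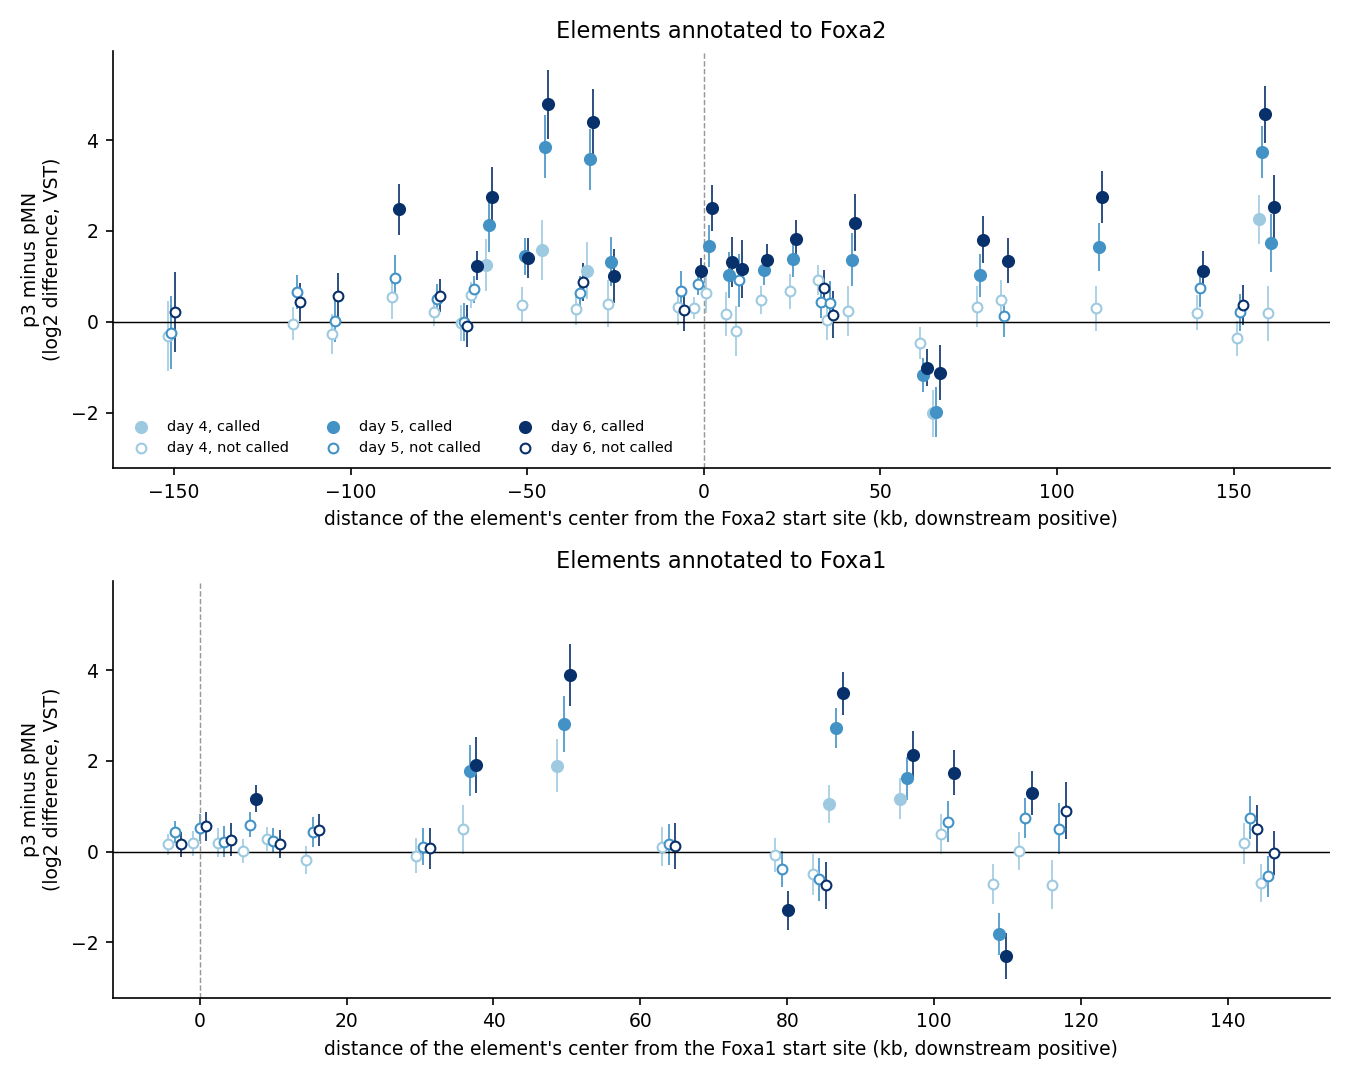
Log2 difference between p3 and pMN (VST scale, y axis) at each member against the distance of its center from the Foxa2 (top) or Foxa1 (bottom) start site in kb, with small sideways offsets between days. Points are limma estimates for days 4, 5 and 6 with 95% confidence intervals, filled where called. At Foxa2 the largest day 6 differences, 4.79, 4.57 and 4.40, lie at -45.0, +158.0 and -32.2 kb, and elements at +62.2 and +65.9 kb lie below 0.

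The promoter element of Foxa2 (Foxa2 TSS, chr2:148044037-148046986) was open in NMP, kept its level in p3 and closed in part in pMN. The NMP libraries held 1266, 1532 and 1685 normalized counts. At day 6 the p3 libraries held 1240, 1268, 1927 and 2215 and the pMN libraries 221, 249, 290 and 348. Every p3 library was above every pMN library, with means of 1662 ± 486 and 277 ± 55.4 (SD, n = 4 each), a ratio of 6.01. The pMN means before that were 872 ± 263 at day 4 (n = 6) and 406 ± 100 at day 5 (n = 5), and pMN at day 6 was below NMP by a log2 difference of -2.39 (adjusted p = 2.73e-11). Between p3 and pMN the log2 difference was 0.63 at day 4 (adjusted p = 0.025, not called), 1.67 at day 5 and 2.51 at day 6 (adjusted p = 3.97e-12). From NMP to p3 at day 6 the difference was 0.12, with a 95% confidence interval of -0.43 to 0.66. The change from day 4 to day 6 differed between p3 and pMN by 1.88 (interval 1.21 to 2.55, adjusted p = 1.95e-05). At day 6 p2 had 306 ± 131 (n = 6) and p0-1 261 ± 29.3 (n = 5). The p2 library that stood apart held 566 and the other p2 libraries 207 to 288. Among 6976 elements at promoters, those most like it by Pearson correlation of mean values over the 25 conditions were at P2rx6 (0.918), Ccdc141 (0.909), Vamp8 (0.904), Gusb (0.902) and Phox2a (0.894), a description over conditions that share day and sort. Of these, P2rx6 and Phox2a were called higher in p3 than in pMN at day 6, by 1.09 and 2.01.

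The promoter element of Foxa1 (Foxa1 TSS, chr12:57545029-57547223) was likewise open in NMP, but its difference between cell types was small. At day 6 the p3 libraries held 733, 749, 864 and 889 normalized counts and the pMN libraries 507, 532, 550 and 592. The groups did not overlap, yet the log2 difference of 0.55 (interval 0.24 to 0.87, adjusted p = 0.0027) was below the size required for a call. The ratio of the means was 1.48. On day 4 the difference was 0.18 (adjusted p = 0.35). NMP held 805 ± 70.1 (SD, n = 3).

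Upstream of Foxa2, 3 intergenic elements were near closed in NMP and opened in p3. Foxa2 -45.0 kb (chr2:148091524-148092376) had 5.40, 7.27 and 7.54 normalized counts in NMP. In p3 its mean was 65.7 ± 32.7 at day 4 (SD, n = 5) and 256 ± 126 at day 5 (n = 5). The day 6 libraries of p3 held 294, 400, 973 and 1427, and those of pMN 3.01, 5.38, 15.0 and 45.5. All p3 libraries lay above all pMN libraries, and the spread within p3 was wide, with both replicate 3 libraries the highest. The ratio of the day 6 means was 44.9 and the log2 difference 4.79 (interval 4.03 to 5.55, adjusted p = 2.38e-15). In p2 at day 6 this element had 61.5 ± 78.3 (n = 6), of which the library that stood apart held 212 and the other 5 from 6.52 to 68.6. The log2 difference between p3 and p2 at day 6 was 3.78, and 4.04 without that library. Within p2 of day 6, 100 nM SAG exceeded 10 nM by 2.42 (adjusted p = 0.00399), and by 1.90 without that library, which was not called (adjusted p = 0.186).

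Foxa2 -32.2 kb (chr2:148078098-148080336) followed the same course from a somewhat higher start. It had 15.7 ± 5.12 normalized counts in NMP (SD, n = 3), then 115 ± 48.0, 524 ± 268 and 1247 ± 682 in p3 on days 4, 5 and 6. The day 6 libraries held 673, 681, 1598 and 2036 in p3 and 21.0, 26.9, 50.7 and 86.4 in pMN. These groups were apart by a ratio of means of 27.0 and a log2 difference of 4.40 (adjusted p = 1.04e-14). The day 4 difference, 1.13 (adjusted p = 0.00484), was near the limit of a call: it lost the call without any 1 of 7 libraries (pMN replicates 1 and 2 and p3 replicate 3 at either SAG concentration, and p3 replicate 1 at 500 nM), with values from 0.94 to 1.22. Foxa2 -60.9 kb (chr2:148107336-148108303) was weaker, at 6.81 ± 2.96 in pMN and 123 ± 90.2 in p3 at day 6 (SD, n = 4 each). Its p3 libraries held 49.7, 54.4, 149 and 240 and its pMN libraries 4.01 to 9.39, so the groups again did not overlap. The log2 difference was 1.24 at day 4 and 2.74 at day 6 (adjusted p = 6.62e-10). Foxa2 -87.3 kb (chr2:148133767-148134811) was the latest of the named elements. It stood at 11.1 ± 4.58 in p3 at day 4 (n = 5), 24.4 ± 10.2 at day 5 (n = 5) and 98.7 ± 66.3 at day 6 (n = 4), and it differed from pMN at day 6 by 2.47 (adjusted p = 9.89e-11). At day 5 its difference of 0.97 was just under the size for a call, and it passed without pMN replicate 3 at 500 nM or p3 replicate 2 at either SAG concentration (1.03 to 1.21).

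Downstream of Foxa2, a pair of intergenic elements about 160 kb away showed large gains in p3 and differed in pMN. Foxa2 +158.0 kb (chr2:147888553-147889471) had 1.08, 1.35 and 3.64 normalized counts in NMP. In p3 it reached 92.4 ± 49.3 at day 4 (SD, n = 5), 426 ± 134 at day 5 (n = 5) and 636 ± 175 at day 6 (n = 4). The pMN libraries of day 6 held 5.01, 8.07, 21.6 and 39.7 and the p3 libraries 464, 529, 696 and 854. It was the member with the largest log2 difference from pMN at day 4, 2.25 (adjusted p = 4.2e-09), and it reached 4.57 at day 6 (adjusted p = 1.94e-17). Foxa2 +160.6 kb (chr2:147885998-147886655) opened as far in p3, to 793 ± 137 (SD, n = 4), but was also open in pMN, at 79.1 ± 22.7 on day 4 (n = 6) and 142 ± 80.2 on day 6 (n = 4). Its day 4 difference between p3 and pMN was 0.19 (interval -0.42 to 0.79), and at day 6 it was 2.52 (adjusted p = 2.1e-08). At 500 nM SAG its day 4 count was 128 ± 2.95 in p3 (n = 2) and 78.4 ± 26.2 in pMN (n = 3). At 100 nM it was 67.2 ± 42.1 in p3 and 79.9 ± 24.5 in pMN (n = 3 each). The 2 elements differ in sequence as well, since TGTTTAC is in the window of +160.6 kb and not in that of +158.0 kb.

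Further along the same flank, Foxa2 +111.8 kb (chr2:147934755-147935563) had similar day 4 means in p3 and pMN at 100 nM SAG but not at 500 nM. On day 4 its normalized count over both concentrations was 65.6 ± 39.4 in p3 (SD, n = 5) and 46.7 ± 7.92 in pMN (n = 6). At 500 nM it was 99.9 ± 8.17 in p3 (n = 2) and 48.7 ± 11.6 in pMN (n = 3). At 100 nM it was 42.7 ± 33.4 in p3 and 44.8 ± 3.31 in pMN (n = 3 each). On day 6 it was 199 ± 78.1 in p3, with libraries from 127 to 297, and 19.1 ± 6.48 in pMN, with libraries from 11.0 to 26.9. The log2 difference was 0.30 at day 4 and 2.75 at day 6 (adjusted p = 1.15e-11). Foxa2 +41.8 kb (chr2:148004596-148005698), inside 9030622O22Rik, was transient. It had 218 ± 73.5 in p3 at day 4, 310 ± 67.2 at day 5 and 132 ± 26.5 at day 6, and 181 ± 48.4, 109 ± 28.5 and 20.9 ± 9.86 in pMN on the same days. The day 6 difference between them was 2.18 (adjusted p = 6.81e-08). From day 5 to day 6 it fell in pMN by 1.99 (adjusted p = 4.23e-06). In p3 the same step was -1.17 (adjusted p = 0.00418), a call that was lost without p3 replicate 2 of day 5 or replicate 3 of day 6 at either SAG concentration, or without p3 replicate 3 of day 5 at 500 nM (-1.20 to -1.05). Without the libraries of replicate 2 the differences at days 5 and 6 were 1.30 and 1.59 and were not called.

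**Figure D2:**
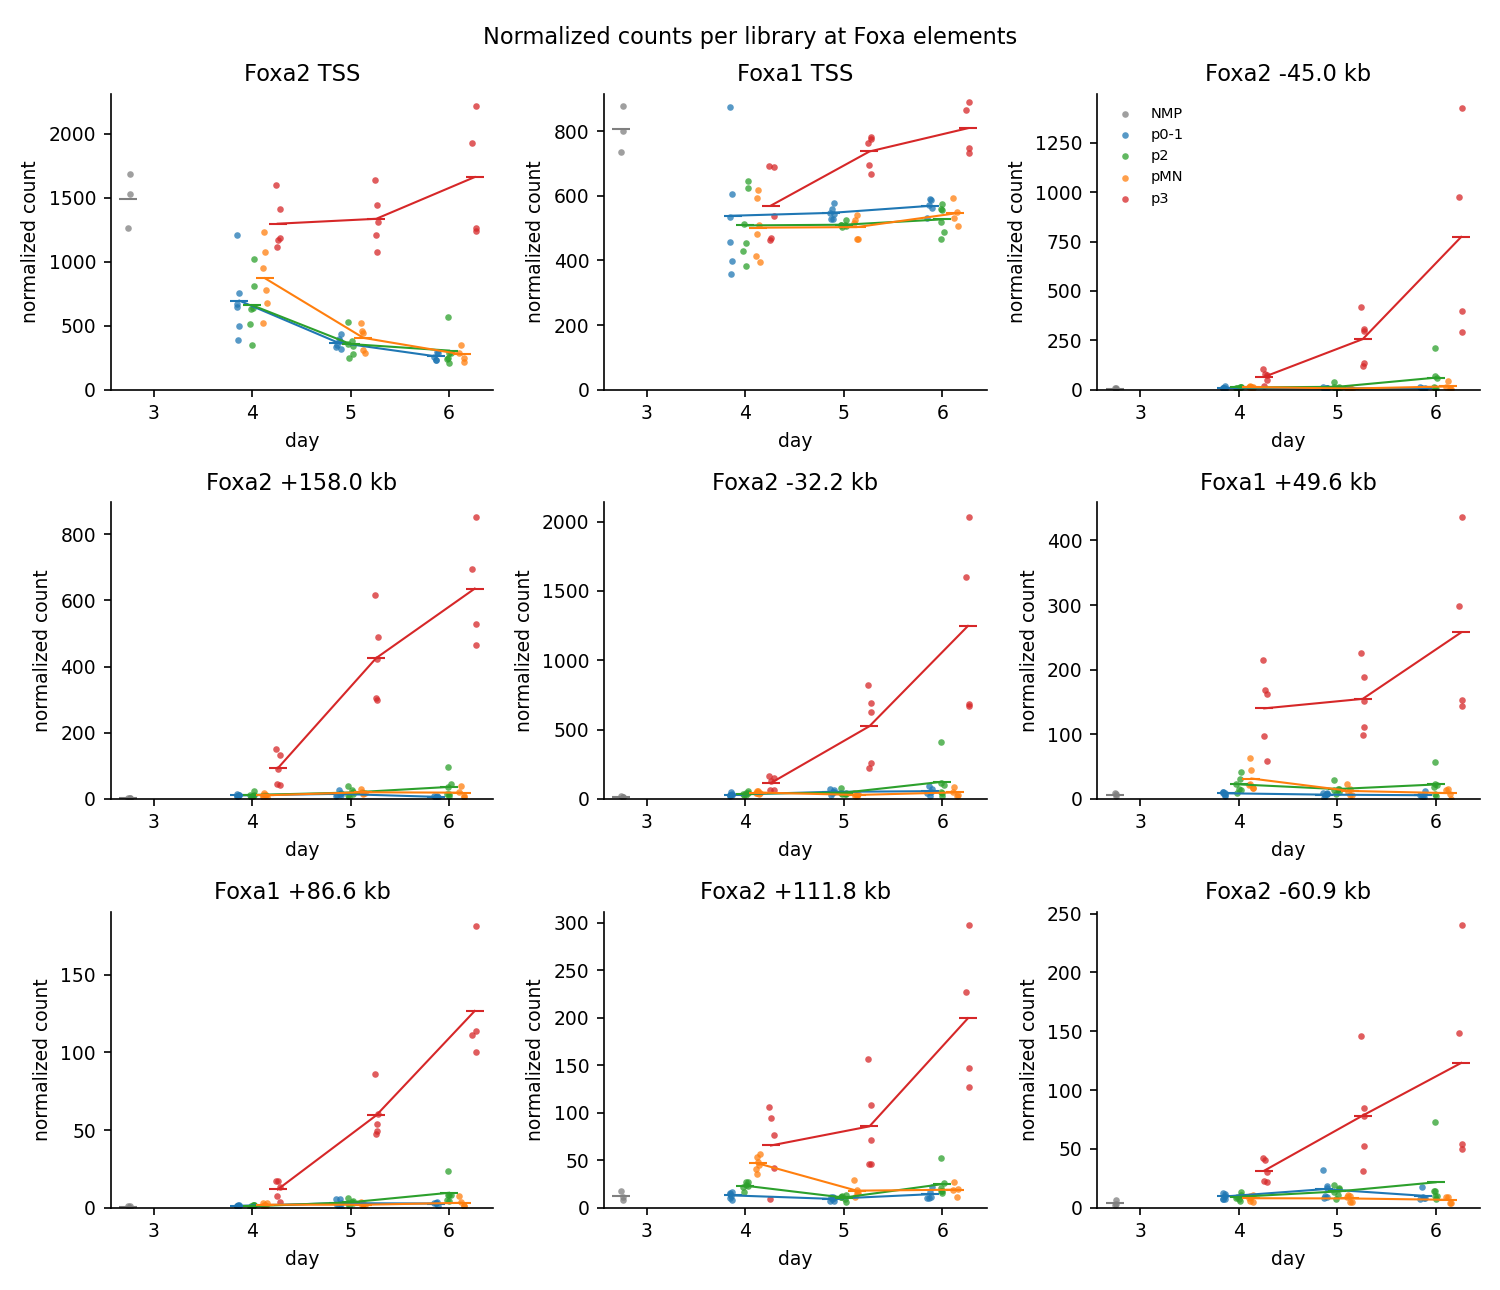
Normalized count (y axis, linear, from 0) by day (x axis) at 9 members, with 1 point per library, horizontal bars for group means and lines joining the means of a cell type. In p3 the distal elements of Foxa2 at -45.0, -32.2 and +158.0 kb and of Foxa1 at +49.6 and +86.6 kb separate from the other cell types, whereas both TSS elements were already high in NMP, at 1494 and 805 on average.

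At Foxa1 the largest differences in favor of p3 lay in distal elements that overlap the neighbouring gene Mipol1. Closer to the start site, Foxa1 +6.8 kb was called higher in p3 than in pMN at day 6 only. Its p3 means then were 1322 and 1330 normalized counts at 100 and 500 nM SAG, against 584 and 573 in pMN (n = 2 each). Foxa1 +49.6 kb (chr12:57496122-57496968), at an exon of Mipol1, had 3.64, 6.74 and 8.62 normalized counts in NMP and already 140 ± 62.0 in p3 at day 4 (SD, n = 5), against 31.4 ± 19.0 in pMN (n = 6). At day 6 the p3 libraries held 143, 152, 298 and 437 and the pMN libraries 0, 7.01, 13.1 and 15.2. The groups were separate by a ratio of means of 29.2 and a log2 difference of 3.89 (adjusted p = 6.22e-14). Foxa1 +86.6 kb (chr12:57459339-57459636), in an intron of Mipol1, had 0, 1.08 and 1.35 in NMP and 127 ± 37.0 in p3 at day 6 (n = 4), against 3.23 ± 3.10 in pMN (n = 4). Its log2 difference was 1.05 at day 4, which was 0.95 and not called without p3 replicate 3 at 100 nM, and 3.48 at day 6 (adjusted p = 2.78e-17). Foxa1 +96.2 kb (chr12:57449276-57450463), which was higher on all 3 days, had differences of 1.17, 1.61 and 2.13.

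Foxa1 +108.9 kb (chr12:57436765-57437667), in another Mipol1 intron, went the other way. It had risen by day 6 in every cell type from NMP, where it stood at 2.33 ± 0.94 (SD, n = 3), and most in pMN. The pMN libraries of day 6 held 167, 192, 271 and 304 normalized counts, p0-1 112 ± 37.1 (n = 5), p2 77.6 ± 16.6 (n = 6), and the p3 libraries 21.4, 26.4, 45.0 and 66.0. All p3 libraries were below all pMN libraries, with a log2 difference of -2.30 (adjusted p = 6.59e-11). At Foxa2 the opposite case was +65.9 kb (chr2:147980705-147981500), inside 9030622O22Rik. It rose from 6.24 ± 2.29 in NMP (n = 3) to 267 ± 73.0 in p3 at day 6 (n = 4), and stood at 589 ± 142 in pMN (n = 4), 909 ± 160 in p2 (n = 6) and 1268 ± 255 in p0-1 (n = 5). Its log2 difference between p3 and pMN was -2.02, -1.996 and -1.12 on days 4, 5 and 6. Against p2 and p0-1 at day 4 it was -2.22 and -2.05 (adjusted p = 2.25e-09 and 1.35e-08).

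Against the other ventral identities at day 6, using the same p3 libraries, 25 members were higher in p3 than in p2 (13.2% of all elements) and 1 lower (13.9%). Against p0-1, 25 were higher (14.5%) and 2 lower (11.0%). Without the p2 library that stood apart, 26 were higher than in p2 and 1 lower. The members' median log2 difference was 0.92 against p2 and 0.96 against p0-1, and that of all elements -0.01 and -0.05. Levels per kb of element, which correct for the width of an element, put Foxa2 +78.2 kb highest in p3 at day 6, at 1537 ± 229 normalized counts per kb (SD, n = 4). It was followed by Foxa2 +160.6 kb (1206 ± 208) and Foxa2 -45.0 kb (907 ± 620). The Foxa2 TSS stood lower on this scale, at 564, close to -32.2 kb at 557. The library ranges of neighbours in this order overlapped throughout the first 13 places.

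From NMP to p3 at day 6, 31 members rose (33.0% of all elements) and 5 fell (24.3%). Split by step, 27 rose and 3 fell from NMP to p3 at day 4 (25.9% and 19.9% of all elements), 13 rose and 0 fell from day 4 to day 5 (8.99% and 3.3%), and 5 rose and 1 fell from day 5 to day 6 (3.35% and 1.03%). The steps share libraries with each other. Among the 31 that rose, the median level at day 4 was 39.4% of the day 6 mean in p3, with a range of 8.50% to 213%, and at day 5 it was 84.9%. The NMP median was 5.24%. The 14 Foxa1 elements had a median of 55.1% at day 4 and the 17 Foxa2 elements 32.9%. The day 5 to 6 count was the least stable of these: leaving out p3 replicate 2 of day 5 at 100 or 500 nM gave 3 and 2 calls in place of 6, and leaving out p3 replicate 3 of day 6 at 100 or 500 nM gave 2 each. Without all libraries numbered replicate 1, 2 or 3 it was 3, 3 and 1. The day 4 to 5 count was 8 without replicate 1.

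The members differed widely in how much of their day 6 level was reached early. The lowest shares at day 4 belonged to Foxa2 -45.0 kb (8.50% of the day 6 mean), Foxa1 +112.4 kb (8.93%), Foxa2 -32.2 kb (9.20%), Foxa1 +86.6 kb (9.35%) and Foxa2 -87.3 kb (11.2%). At the other end Foxa2 +10.0 kb was at 213%, +41.8 kb at 166% and Foxa1 +30.4 kb at 153%, past their day 6 level. The library ranges of neighbours in this order overlapped among the named elements at day 4, and the ends of the order did not. These ranges hold the day 6 mean fixed. That mean comes from replicates 2 and 3, whereas the p3 libraries of day 4 include replicate 1. The day 6 libraries spanned 37.9% to 185% of their mean at Foxa2 -45.0 kb and 30.1% to 184% at -87.3 kb. The order within single replicates was not tested. Foxa2 -45.0 kb rose by 2.14, 1.68 and 1.42 log2 units in the 3 steps and Foxa2 -32.2 kb by 2.23, 1.91 and 1.25. The last step of both lost its call without any 1 of 4 libraries, p3 replicate 2 of day 5 or p3 replicate 3 of day 6 at either SAG concentration, with values of 0.97 to 1.24 and 0.80 to 1.04. Foxa2 +158.0 kb rose by 3.18 and 2.09 in the first 2 steps, and its last step of 0.57 was not called (adjusted p = 0.193). Foxa1 +49.6 kb rose by 3.18 in the first step, with 0.10 and 0.61 after it (adjusted p = 0.815 and 0.201). Foxa2 -87.3 kb had 0.41 and 0.66 in the first steps (adjusted p = 0.195 and 0.0315) and rose by 1.44 in the last (adjusted p = 7.39e-05).

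**Figure D3:**
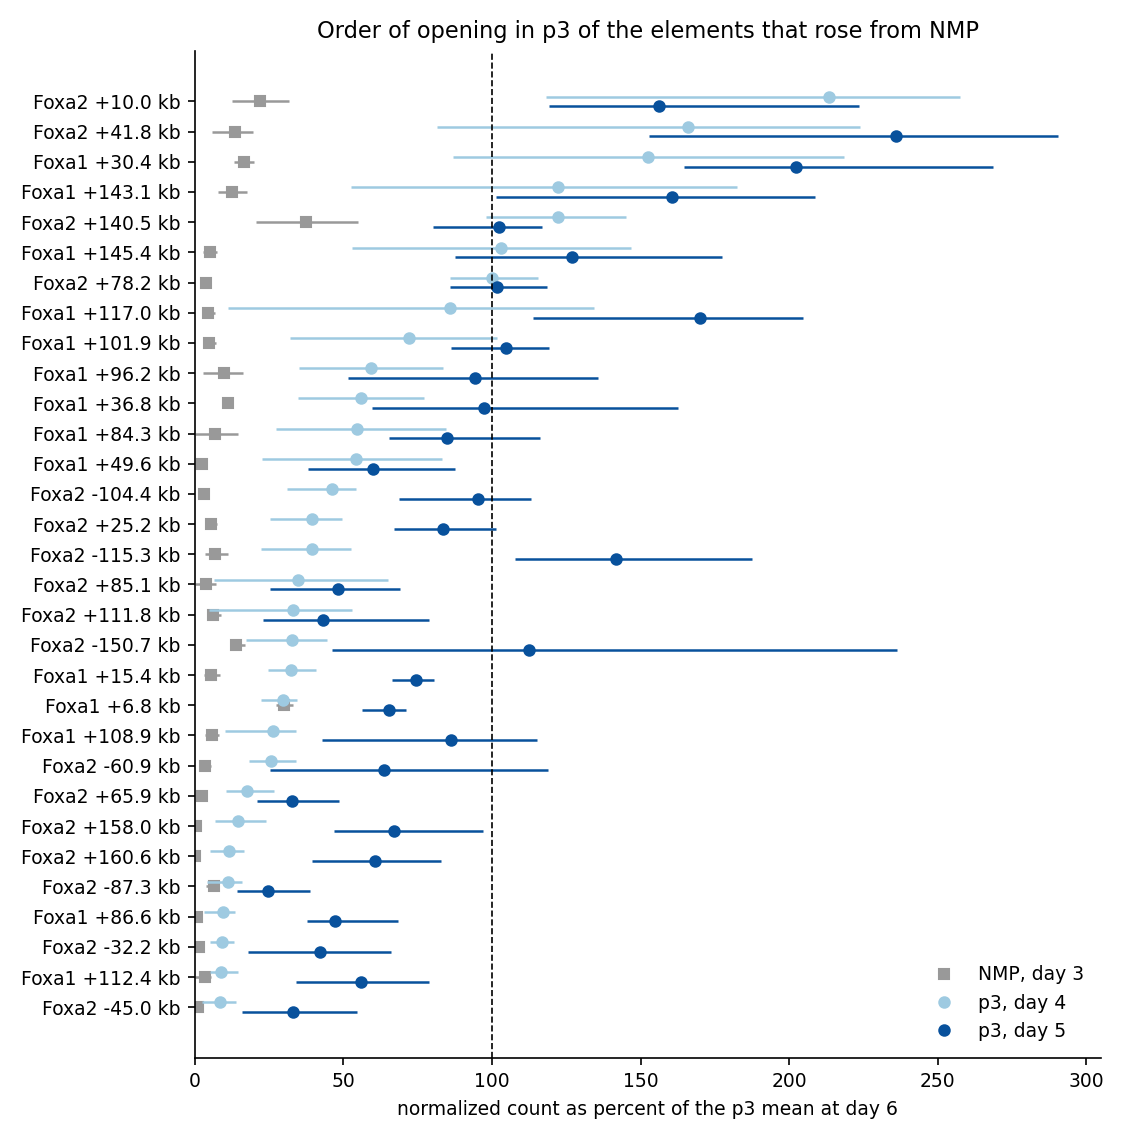
Level of the 31 members that rose from NMP to p3 at day 6, as percent of their own p3 mean at day 6 (x axis, dashed line at 100), sorted by the day 4 level. Symbols are group means and lines run from the lowest to the highest library for NMP, p3 at day 4 and p3 at day 5. Foxa2 -45.0 kb and -32.2 kb are at the bottom with 8.50% and 9.20% at day 4, and Foxa2 +10.0 kb at the top with 213%.

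The signed change before day 4 minus the signed change after it was above 0 at 15 members (20.3% of all elements) and below 0 at 8 (21.6%). Of the 15, 12 had risen from NMP to p3 at day 6. Of the 8, 3 had risen, Foxa1 +6.8 and +112.4 kb and Foxa2 -87.3 kb, whereas Foxa2 -6.5 and +35.8 kb count among them through a fall before day 4, of -3.00 and -1.85. Between p3 and pMN, the change from day 4 to day 6 was more positive in p3 at 19 members (8.03%) and more negative at 2 (6.21%). Without the libraries numbered replicate 2 these calls were 15 in place of 23 and 12 in place of 21. The largest such differences were 3.27 at Foxa2 -32.2 kb (interval 2.31 to 4.24) and 3.21 at Foxa2 -45.0 kb (interval 2.21 to 4.21), followed by 2.44 at both Foxa2 +111.8 kb and Foxa1 +86.6 kb. Foxa1 +108.9 kb was at -1.58 (adjusted p = 0.000266).

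The elements described next had other courses and were chosen after their values were seen. Foxa2 +78.2 kb (chr2:147968270-147969215) opened between NMP and day 4 in all cell types, from 51.8 ± 15.8 normalized counts in NMP (SD, n = 3). In p3 it then held, at 1454 ± 194, 1478 ± 173 and 1454 ± 216 on days 4, 5 and 6. In pMN it was 1171 ± 233, 716 ± 141 and 408 ± 77.7, and at day 6 it was 267 ± 179 in p2 (n = 6) and 179 ± 57.8 in p0-1 (n = 5). The difference between p3 and pMN was 0.33 at day 4 (not called) and 1.81 at day 6 (adjusted p = 4.77e-08). Foxa2 -6.5 kb (chr2:148053093-148053864) closed after NMP, from 301 ± 67.8 (n = 3) to 27.2 ± 8.15 in p3 at day 4 (n = 5) and 7.49 ± 4.16 at day 6 (n = 4), a first step of -3.00 (adjusted p = 1.89e-15). It closed to a similar extent in pMN, p2 and p0-1, at -3.33, -3.36 and -3.19 over that step.

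**Figure D4:**
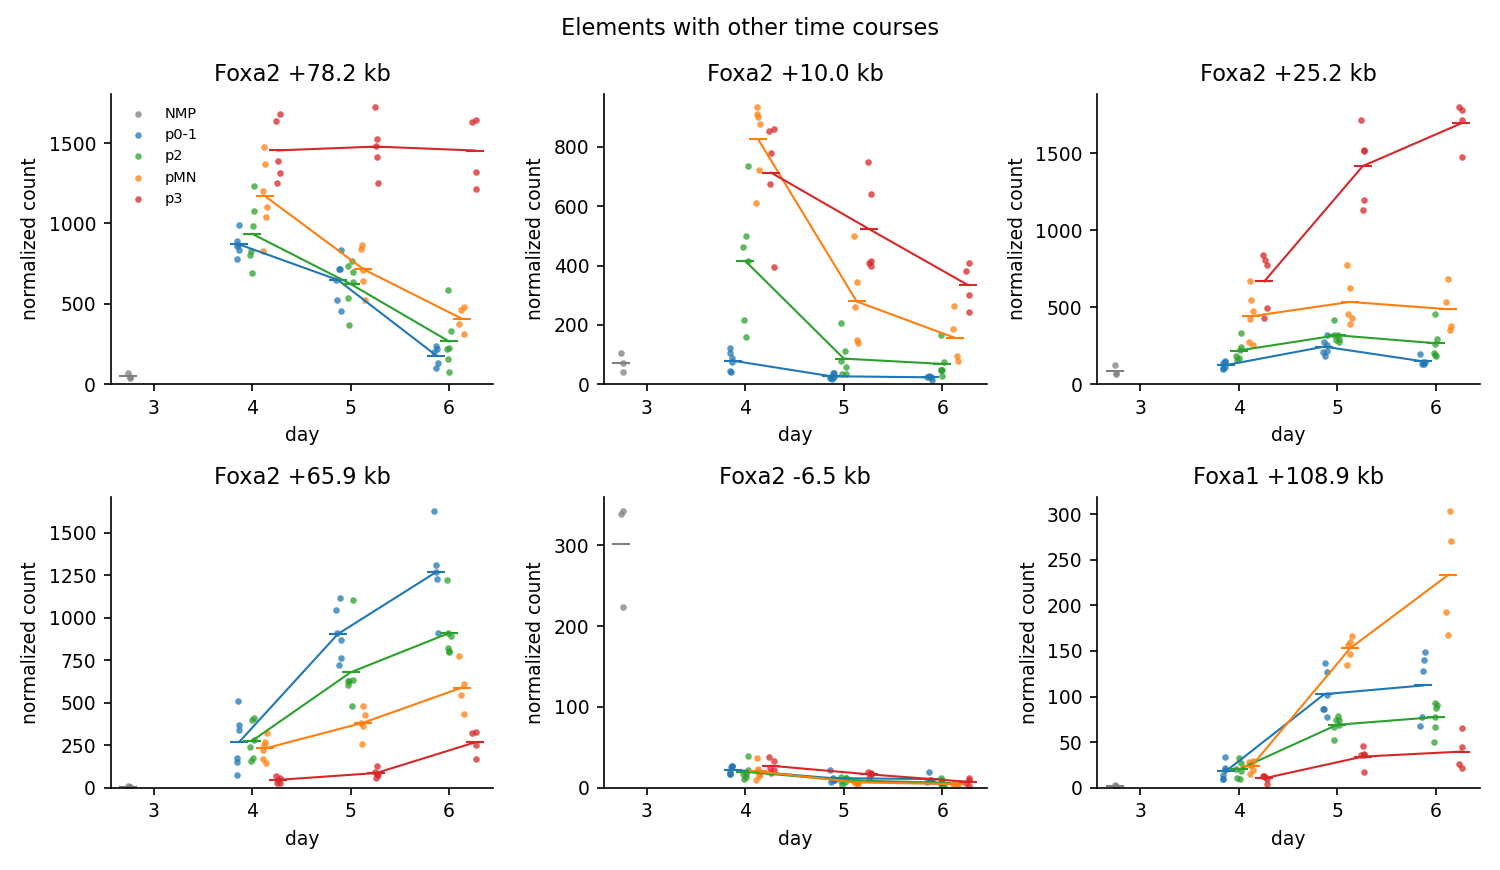
Normalized count (y axis, linear, from 0) by day (x axis) at 6 members with other courses, with 1 point per library, bars for group means and lines joining the means. Foxa2 +78.2 kb stays near 1454 in p3 and is at 408 in pMN at day 6, Foxa2 -6.5 kb is highest in NMP (301), and the means of Foxa2 +65.9 kb and Foxa1 +108.9 kb on days 4, 5 and 6 are lower in p3 than in the other progenitor types.

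Some members differed between pMN and p0-1, which received different SAG concentrations, already at day 4. Between pMN and p0-1 at day 4, 6 members were higher in pMN (3.45% of all elements) and 0 lower (0.33%). These were Foxa1 +49.6 kb and Foxa2 +7.1, +10.0, +25.2, +111.8 and +160.6 kb. Foxa2 +10.0 kb (chr2:148036783-148037220) had 79.8 ± 32.5 normalized counts in p0-1, 415 ± 207 in p2, 825 ± 130 in pMN (SD, n = 6 each) and 713 ± 193 in p3 (n = 5). The p0-1 libraries, from 42.2 to 121, were below all p2 libraries, from 161 to 734, while p3 and pMN overlapped. It was higher in pMN than in p0-1 by 3.25 (adjusted p = 7.65e-14) and in p2 than in p0-1 by 2.13 (adjusted p = 2.16e-07), and p3 minus pMN was -0.20 (interval -0.76 to 0.36). Its mean also stood higher at the higher SAG concentration of each cell type. It was 53.5 at 0 nM and 106 at 10 nM in p0-1, 264 at 10 nM and 566 at 100 nM in p2, 744 at 100 nM and 907 at 500 nM in pMN (n = 3 each), and 644 at 100 nM (n = 3) and 818 at 500 nM (n = 2) in p3. None of these differences was called, and the largest, between 100 and 10 nM in p2, was 1.14 (interval 0.40 to 1.88). At 100 nM the p2 libraries, from 464 to 734, overlapped those of pMN, from 610 to 900, whereas at 10 nM p2 (161 to 414) lay above p0-1 (90.3 to 121). At day 6 it stood lower, at 334 ± 75.0 in p3, 156 ± 87.2 in pMN (n = 4 each) and 23.7 ± 5.69 in p0-1 (n = 5). Foxa2 +25.2 kb (chr2:148019790-148023778) had means at day 4 of 125 ± 20.4, 219 ± 65.1, 442 ± 158 (n = 6 each) and 668 ± 192 (n = 5) from p0-1 to p3. In p3 it rose further, by 1.05 to day 5 (adjusted p = 2.83e-05), and reached 1693 ± 150 at day 6 (n = 4) against 488 ± 153 in pMN (n = 4). Foxa2 +7.1 kb (chr2:148038151-148041643), which contains the start site of 9030622O22Rik, was already open in NMP (712 ± 38.2, n = 3). It had 418 in p0-1, 621 in p2, 1197 in pMN and 1317 in p3 at day 4.

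**Figure D5:**
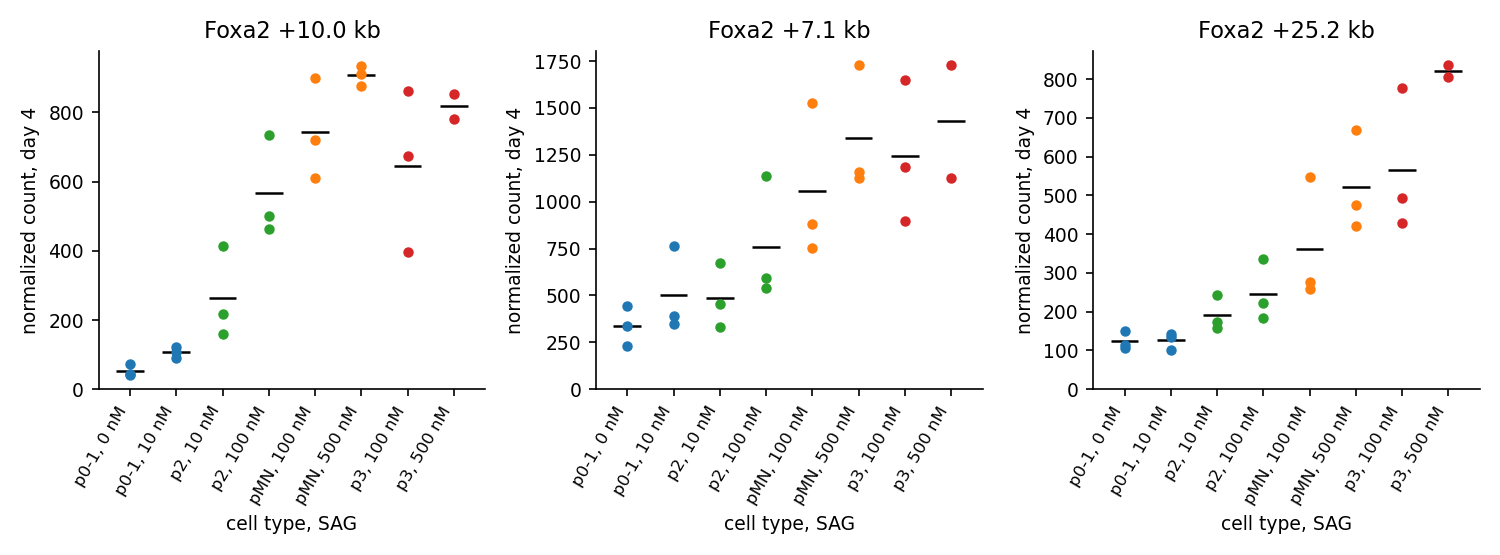
Normalized count at day 4 (y axis, linear, from 0) for each cell type and SAG concentration (x axis) at Foxa2 +10.0, +7.1 and +25.2 kb, with 1 point per library and bars for means. At +10.0 kb the p0-1 libraries lie between 42.2 and 121 and the pMN libraries between 610 and 934.

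Within p3 no difference between SAG concentrations was called. Comparing 500 with 100 nM, 0 members were called on day 4 (0.0% of all elements), 0 on day 5 (0.0%) and 0 on day 6 (0.00358%), by limma with Benjamini-Hochberg adjustment. At an unadjusted p under 0.05 there were 7, 0 and 1 members. The largest differences were 1.28 at Foxa2 +111.8 kb on day 4 (interval 0.54 to 2.02, adjusted p = 0.498), 0.69 at Foxa2 -150.7 kb on day 5 (interval -0.45 to 1.83) and 0.72 at Foxa2 -87.3 kb on day 6 (interval -0.06 to 1.51). With 2 or 3 libraries per condition these intervals still include differences of more than 1 log2 unit. Taking single SAG concentrations, p3 against pMN at day 4 gave 2 members higher (1.11% of all elements) and 2 lower (6.08%) at 100 nM, and 6 higher (2.54%) and 1 lower (3.45%) at 500 nM. The larger number of higher members in the comparison over both concentrations was thus not seen at 100 nM alone. The p3 libraries of day 4 differed in depth, with 9298160, 9577692 and 13974633 reads in elements at 100 nM. At 500 nM they held 16667003 and 23973955. The part of depth in these counts was not tested.

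The genes with which FOXA2 is linked in the floor plate and ventral neural tube were read from all their elements, by the same comparison of p3 with pMN at day 6. Shh, the signal that Foxa2 both answers and helps to switch on, had 8 of 13 elements higher and 1 lower, with a median log2 difference of 1.25. Lmx1b, a homeobox gene, had 5 of 11 higher and 0 lower, and Spon1, which encodes a secreted floor plate protein, 7 of 22 higher and 3 lower. Nkx6-1, a homeobox gene shared by p2, pMN and p3, had 3 of 29 higher and 3 lower. Over 95 elements of this ventral list, 26 were higher and 7 lower, with a median of 0.35. The Hedgehog components Ptch1, Gli1, Gli2, Gli3 and Smo had 10 of 65 higher and 11 lower, with a median of -0.20. Over all elements 12.4% were higher and 13.9% lower in this comparison, with a median of -0.01.

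Markers of other cells that the gate could hold were read in the same comparison, in which 12.4% of all elements were higher and 13.9% lower. Of 55 elements of the floor plate genes Shh, Spon1, Ntn1 and Foxj1, 17 were higher in p3 at day 6 and 6 lower, and Foxj1 had 0 of 7 higher and 2 lower. Their summed normalized counts at day 6 ranged from 11625 to 13282 in pMN and from 14535 to 18660 in p3. At day 4 they ranged from 7464 to 8764 in pMN and from 6178 to 7430 in p3. Elements of the endoderm genes Sox17, Gata4, Gata6 and Cdh1 had 6 of 33 higher and 3 lower, with sums of 3502 to 4421 in pMN and 4906 to 5395 in p3. Those of the neuronal genes Tubb3, Elavl3 and Dcx had 1 of 15 higher and 6 lower, with sums of 5735 to 6286 in pMN and 3421 to 4918 in p3. The median log2 differences were 0.50 for the floor plate genes, 0.11 for the endoderm genes and -0.57 for the neuronal genes. That of all elements was -0.01. The part of such cells in the differences at the Foxa loci was not tested.

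For Foxa3 (chr7:19013284-19023538, minus strand) the start site lay within an element assigned to the promoter of its neighbour Sympk (chr7:19023306-19025116), so the rule gave it no member. The 20 elements within 100 kb of Foxa3 belonged to other genes. Between p3 and pMN, 0 of these were higher on any day, and 0, 3 and 2 were lower on days 4, 5 and 6. Of all elements, 2.48%, 8.31% and 12.4% were higher and 5.2%, 11.9% and 13.9% lower on these days.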

How the data were processed

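Per the labels and methods, the authors aligned ATAC-seq reads to mm10 with the nf-core atacseq pipeline, called peaks with MACS at a false discovery rate of 1e-05, built a consensus of peaks found in at least 2 replicates, counted reads with featureCounts, named the nearest gene with HOMER and applied the variance-stabilizing transformation of DESeq2. Versions of the tools within the pipeline are not given in the sources used here. The deposited values are on this log2 scale. They were turned back into normalized counts, and the reads recovered were whole for every value tested, so limma 3.58.1 (R 4.3.3) on the log2 values was the main test and a count model (voom) an alternative. A single fit over 67 libraries and 25 condition means gave all contrasts, which average SAG concentrations. Tests were checked on simulated data of independent libraries, so the check does not cover correlation between libraries of the same replicate number. The table had 0 value columns without a sample.

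Elements were named in full if nearest a start site or called between p3 and pMN on any day, at most 12, by size at day 6. The others with values given were chosen after seeing them. The members and lists were chosen with earlier results of these data known. A gene of the floor plate and ventral lists is not reported here and was left out of their counts and sums. Replicate numbers come from the sample titles, and those in 15 descriptions differ. Deviations from condition means correlated between same-numbered p3 and pMN libraries. The median r was 0.30, 0.29 and 0.39 on days 4, 5 and 6, and the lowest 0.044, 0.20 and 0.34. Those of same-numbered p3 libraries at 100 and 500 nM SAG also correlated at day 6 (r 0.60). A block for the number is therefore given as an alternative. Alternatives covered normalization, filters, pseudocount, threshold, samples in the fit and each replicate or library left out. Sequences and exons come from GRCm38, GENCODE M21 and RefSeq.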

Additional observations from a re-analysis of the deposited data

Results flagged for a closer look

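In 20 of 156 groups of 4 to 10 libraries, the highest or lowest library lay far from the rest by Dixon's test at 95%, where chance gives about 1 in 20. Most of these were replicate 3 of p2 at 100 nM SAG. On day 6 it held, in normalized counts, 212 at Foxa2 -45.0 kb (6.52 to 68.6 in the other libraries), 408 at -32.2 kb (22.8 to 115), 52.0 at +111.8 kb (15.5 to 26.1), 72.7 at -60.9 kb (7.34 to 14.7), 191 at +160.6 kb (31.8 to 73.3), 566 at the Foxa2 TSS (207 to 288) and 27.3 at -87.3 kb (4.08 to 8.37). At Foxa1 it held 57.2 at +49.6 kb (4.89 to 23.7) and 23.4 at +86.6 kb (4.53 to 8.47). On day 5 the library of that number and concentration held 38.3 at Foxa2 -45.0 kb (5.42 to 15.3), 81.3 at -32.2 kb (31.6 to 45.1), 79.7 at +160.6 kb (51.7 to 60.8) and 29.1 at Foxa1 +49.6 kb (8.13 to 15.2).

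The other libraries that stood apart did so at low counts, with 1 exception. In p3 at day 6, replicate 3 at 500 nM held 182 at Foxa1 +86.6 kb (100 to 114 in the others). In p0-1 the cases were 49.2 at Foxa2 -32.2 kb on day 4 (22.6 to 32.3), 1.01 at Foxa1 +49.6 kb on day 5 (6.18 to 9.16), 1.18 at Foxa1 +86.6 kb on day 6 (2.90 to 3.49) and 17.8 at Foxa2 -60.9 kb on day 6 (7.75 to 9.30). In pMN, Foxa2 -87.3 kb held 2.95 in 1 library of day 4 (4.87 to 5.96) and 9.92 in 1 of day 5 (6.03 to 7.10).

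The change from day 4 to day 6 differed between p3 and pMN, by the test of the difference itself in limma, at 12 of the 13 elements named by rule. This count is no separate support, since those 12 were named by their p3 to pMN difference at day 6, a part of the tested change. Over all 52 members the change was more positive in p3 at 19 (8.03% of all elements) and more negative at 2 (6.21%). In log2 units, p3 minus pMN, the difference in change was 3.27 at Foxa2 -32.2 kb, 3.21 at -45.0 kb, 2.44 at +111.8 kb, 2.34 at +160.6 kb, 2.32 at +158.0 kb, 1.94 at +41.8 kb, 1.93 at -87.3 kb, 1.88 at the Foxa2 TSS and 1.50 at -60.9 kb. At Foxa1 it was 2.44 at +86.6 kb, 2.00 at +49.6 kb and -1.58 at +108.9 kb.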

How the results depend on the processing

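Counts of called members moved by over 1.5 times mainly where fewer elements could be called. With testing limited to elements whose mean in the compared libraries exceeded 100 normalized counts, p3 against pMN gave 1, 11 and 17 on days 4, 5 and 6, NMP to p3 at day 4 gave 8, day 4 to 5 gave 7, the change before against after day 4 gave 11, the p3-specific change 10, p3 against p2 14 and p3 against p0-1 13. With a log2 difference above 2 required, the same comparisons gave 2, 6, 13, 16, 2, 10, 6 and, against p2, 14, and day 5 to 6 gave 0. The day 5 to 6 count of 6 became 3 with a pseudocount of 1, 2 with only the groups compared in the fit and 3 with voom; the cause was not tested. With only 100 nM libraries, an alternative chosen after seeing the data like all those for p2 and p0-1, p3 against pMN at day 4 gave 4.

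With each replicate or library left out in turn, the counts ranged from 5 to 8, 19 to 23 and 25 to 31 for p3 against pMN on days 4, 5 and 6. They ranged from 29 to 32 for NMP to day 4, 8 to 16 for day 4 to 5, 1 to 8 for day 5 to 6, 15 to 24 for the change before against after day 4, 12 to 25 for the p3-specific change, 24 to 29 against p2 and 26 to 29 against p0-1. Without replicate 1 the day 4 differences of Foxa2 -45.0 and -60.9 kb were 1.59 and 1.26 and not called (adjusted p = 0.0304 and 0.0472, limma). Over all named elements and settings 1844 results kept their direction and side of the threshold, 24 gained and 103 lost a call, and 0 reversed.

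With the replicate number as a block, p3 against pMN gave 8, 21 and 31 called members on days 4, 5 and 6, and no count moved by over 1.5 times. The block changed single calls only in the change before against after day 4, to -0.95 at the Foxa1 TSS and -1.09 at Foxa1 +86.6 kb. Conditions hold 2 or 3 libraries, which limits comparisons of SAG concentrations most, and elements under about 10 normalized counts have compressed log2 differences.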
